A study of Mus musculus with 10 samples.

Results

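Expression of 10 genes that act downstream of p53 or carry out apoptosis was examined in the livers of mice overexpressing the kinase ASK1 in hepatocytes. The members were taken by gene name, not by value, from the deposited table of gene expression: Cdkn1a, Mdm2, Ccng1, Bax, Bbc3, Pmaip1, Bcl2l11, Gadd45a, Gadd45b and Gadd45g, that is 10 of 54532 genes listed. All 10 were found, and 9 of 10 passed the filter on low values. Liver mRNA was sequenced from 10 C57BL/6J mice, 5 per genotype, that had received a high-fat diet (HFD) for 7 weeks from 6 weeks of age and were fasted for 5 h. ASK1f/f mice were homozygous for a murine ASK1 cDNA placed in the ROSA26 locus behind a floxed stop sequence, without Cre. ASK1+hep mice carried the same construct together with Alb-Cre, a recombinase driven by the albumin promoter, so both genotypes shared the construct, the diet and the fast, and only hepatocytes of ASK1+hep mice were meant to transcribe it. No group on chow was analysed here.

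The transcription factor p53 is stabilised after DNA damage and other stress and switches on genes that halt the cell cycle, feed back on p53 itself or open the way to apoptosis. Apoptosis through mitochondria is decided by the BCL2 family, in which BH3-only proteins bind the pro-survival members or activate BAX, and BAX then permeabilises the outer mitochondrial membrane. ASK1, encoded by Map3k5, is a stress-activated kinase at the head of the JNK and p38 cascades, and sustained activity of this pathway is known to be able to drive cell death. Transcript levels do not measure kinase activity or the number of dying cells.

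The promoter stretches of 5 of the 10 genes, Cdkn1a, Bax, Bbc3, Bcl2l11 and Gadd45g, are shown because these genes differ in the elements that lie just upstream of the start site. Each line gives the 250 bases before a RefSeq start site (GRCm38.p6), 5′ to 3′ on the strand of the gene. Capitals mark a pair of p53 decamers in Cdkn1a (chr17:29090729-29090978, plus strand), a single p53 decamer in Bax (chr7:45466899-45467148, minus strand), a FOXO core in Bbc3 (chr7:16310011-16310260, plus strand) and in Bcl2l11 (chr2:128125788-128126037, plus strand), and an E-box followed by a CHOP-ATF4 element in Gadd45g (chr13:51846425-51846674, plus strand). The second decamer of the Cdkn1a pair holds 1 mismatch to the consensus. Not every match described below is in capitals. Unmarked are an E-box 9 bases upstream of the start site in Bax, a single decamer 73 bases upstream in Cdkn1a and a TATA box 27 bases upstream in Gadd45g. The Bbc3 stretch lies inside the gene model of the table, which starts farther upstream.
Cdkn1a: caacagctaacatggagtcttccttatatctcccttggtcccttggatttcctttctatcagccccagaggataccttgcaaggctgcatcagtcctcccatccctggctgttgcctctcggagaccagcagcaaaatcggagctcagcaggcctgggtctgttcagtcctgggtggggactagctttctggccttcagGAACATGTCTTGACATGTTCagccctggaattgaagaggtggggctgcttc
Bax: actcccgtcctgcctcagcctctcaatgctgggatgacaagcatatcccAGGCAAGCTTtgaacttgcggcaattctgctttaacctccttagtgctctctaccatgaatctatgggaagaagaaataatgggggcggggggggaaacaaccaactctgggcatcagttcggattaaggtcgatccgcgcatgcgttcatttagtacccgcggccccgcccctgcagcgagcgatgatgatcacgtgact
Bbc3: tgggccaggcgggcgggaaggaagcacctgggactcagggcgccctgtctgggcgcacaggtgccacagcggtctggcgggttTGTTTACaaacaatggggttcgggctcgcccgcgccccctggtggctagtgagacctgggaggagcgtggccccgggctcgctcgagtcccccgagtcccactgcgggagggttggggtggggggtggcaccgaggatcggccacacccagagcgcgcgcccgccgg
Bcl2l11: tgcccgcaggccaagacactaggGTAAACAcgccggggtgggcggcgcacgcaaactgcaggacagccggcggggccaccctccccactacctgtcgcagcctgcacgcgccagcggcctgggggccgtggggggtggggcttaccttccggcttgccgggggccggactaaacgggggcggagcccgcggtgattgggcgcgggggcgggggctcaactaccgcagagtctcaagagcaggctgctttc
Gadd45g: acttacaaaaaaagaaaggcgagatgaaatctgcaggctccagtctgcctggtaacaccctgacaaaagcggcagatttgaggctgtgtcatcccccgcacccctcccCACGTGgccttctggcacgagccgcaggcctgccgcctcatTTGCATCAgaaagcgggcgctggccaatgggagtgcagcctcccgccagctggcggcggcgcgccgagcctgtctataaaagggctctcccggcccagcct

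RefSeq windows from 250 bases before to 50 bases after a start site were held for 9 of 10 members, 13 windows in all, and for 32851 windows over all genes. The p53 decamer was searched by its consensus, on both strands. A single decamer was found in 8.36% of all windows and in 5 of the 13 windows of the members (Cdkn1a, Mdm2, Ccng1, Bax and Gadd45a). An adjoining pair of decamers, with at most 1 mismatch over its 20 bases, was found in 0.0548% of all windows and, among the members, only in that of Cdkn1a, where it began 51 bases upstream of the start site. The FOXO core (GTAAACA, both strands) stood in 3.65% of all windows and in those of Bbc3, Bcl2l11 and Mdm2. The CHOP-ATF4 element (TGATGNAA, both strands) stood in 3.97% of all windows and, among the members, in that of Gadd45g. The E-box (CACGTG, the same on both strands) stood in 7.15% of all windows and in those of Bax, Bbc3, Gadd45b and Gadd45g. The AP-1 element (TGANTCA, 7.81% of all windows) and the cyclic AMP element (TGACGTCA, 1.79%), both searched on both strands, were found in 0 of the 13 windows, and the TATA box (TATAAA, sense strand, 8.32%) in those of Gadd45b and Gadd45g. These matches describe the letters of the windows and were not tested for binding.

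Expression is given as FPKM, fragments per kilobase of gene scaled to a size of the library, which allows levels of different genes to be compared. The size implied by the values differed from the reads on genes. In ASK1+hep replicate 3 it was 13777799 beside 15480136 reads, and in ASK1f/f replicate 1 it was 16696171 beside 15713626. Whole reads could be recovered from every FPKM value, and reads on genes ranged from 14411830 to 16056102 in ASK1f/f and from 13367742 to 16163378 in ASK1+hep livers. Genotypes were compared by limma on log2(FPKM + 1), which understates changes of low genes, with p-values adjusted over all 13306 genes that passed the filter. Over all of these, 0 genes (0%) reached an adjusted p of 0.05 or less, whereas the unadjusted p was under 0.05 in 768 genes (5.77%), 406 (3.05%) of them higher and 362 (2.72%) lower in ASK1+hep. By another fit, limma-voom with quality weights, 1 gene passed the adjusted threshold, and it was none of the 10. The study called genes with DESeq2, which was not run here, and the paper reports a strong rise of hepatic Fgf21 in ASK1+hep mice. Bbc3 was the 1 of 9 members tested (11.1%) with an unadjusted p under 0.05, and 0 of 9 passed after adjustment. The log2 fold change was positive in 5 and negative in 4 of them, with a median of 0.052 beside -0.007 over all genes tested. In no member were the genotypes free of overlap, as they were in 115 genes (0.864%) overall. The replicates are separate livers, and fewer cells of a type and less RNA per cell cannot be told apart in such bulk samples.

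**Figure D1:**
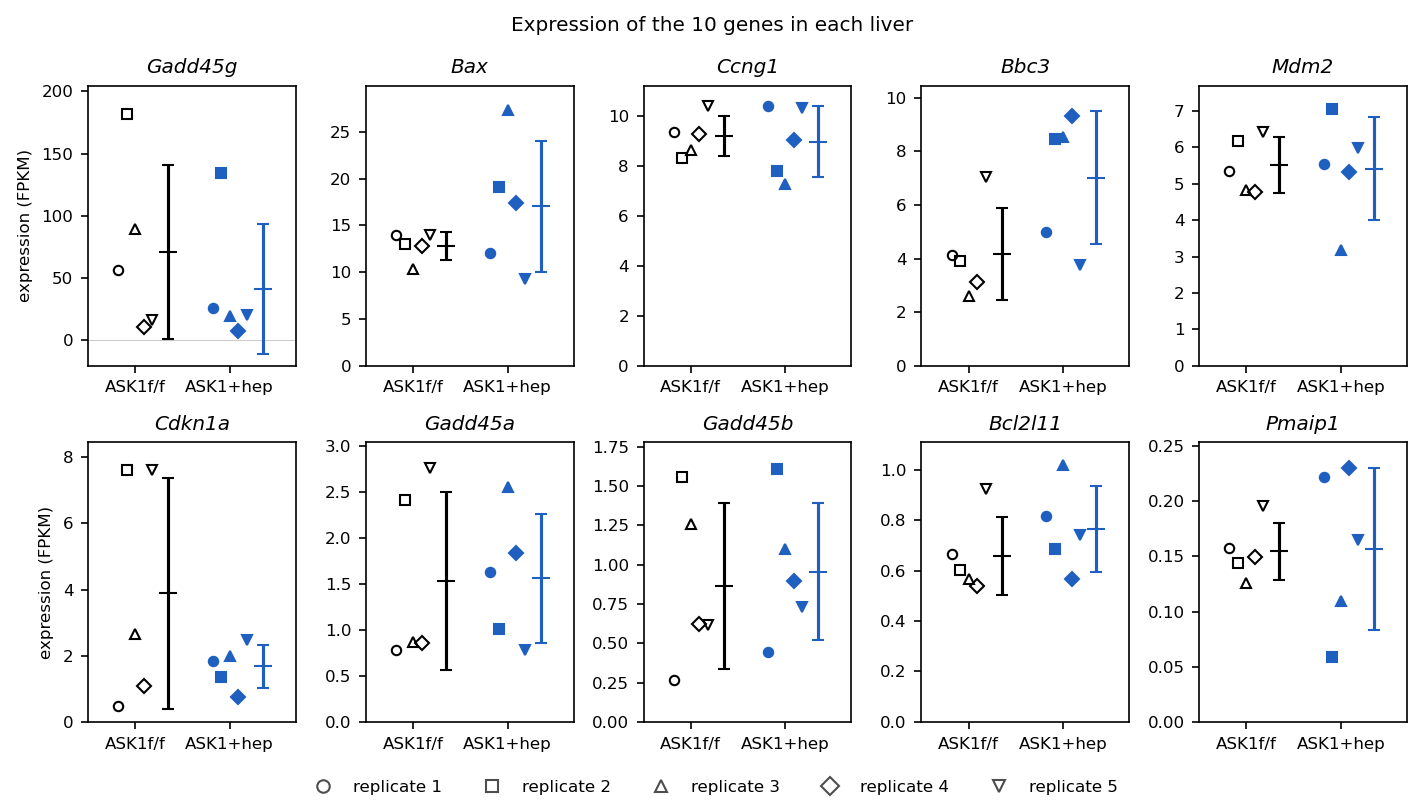
FPKM (y axis, linear, from 0 except for Gadd45g, where the error bar runs below it) of the 10 genes in each ASK1f/f (black, open) and ASK1+hep (blue, filled) liver, with the mean and SD of 5 livers beside the points and a symbol for each replicate number. For Bbc3, ASK1+hep replicates 2, 3 and 4 lie above every ASK1f/f liver, whereas Cdkn1a and Gadd45g spread widely within a genotype.

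Map3k5 itself was examined first as the check of the labels. By replicate number, from 1 to 5, its level was 6.74, 6.88, 5.77, 4.71 and 19.8 FPKM among the ASK1f/f livers. The ASK1+hep livers, in the same order, gave 16.4, 11.1, 7.68, 12.4 and 15.2 FPKM. All 5 ASK1+hep livers exceeded 4 of the 5 ASK1f/f livers, but the highest value of all was in the library labelled ASK1f/f replicate 5, which goes against its label. Map3k5 had a log2 fold change of 0.60 ± 0.32 (SE, limma, adjusted p = 0.812), and 0.159 was the exact two-sided permutation p. Without that library the log2 fold change of Map3k5 was 0.92 (limma, unadjusted p = 0.000806, adjusted p = 0.283), and with quality weights in limma-voom it was 0.97 (unadjusted p = 0.00904, adjusted p = 0.536), with adjusted p-values from 0.283 to 0.998 over all alternatives. The same liver had the highest summed markers of all 10 for macrophages (143 FPKM), neutrophils (14.9), cholangiocytes (32.7) and dividing cells (2.14 FPKM) and the lowest for hepatocytes (32151 FPKM). Its sums for stellate cells and fibroblasts (21.4 FPKM), endothelial cells (32.5), lymphocytes (1.71) and erythroid cells (342 FPKM) were not the highest. The part of these cell types in its values was not tested. Without this liver, the difference kept its sign in 8 of the 9 members tested, and that of Mdm2 turned to 0.0035. The order of replicates is the same wherever 5 values are given below.

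Genes of cell-cycle arrest and of p53 feedback did not differ between genotypes beyond the spread between livers. Cdkn1a encodes p21, an inhibitor of cyclin-dependent kinases that halts cells in G1, and lies on chromosome 17 (29090976 to 29100727, plus strand, GRCm38). Its levels were 0.489, 7.61, 2.65, 1.09 and 7.61 FPKM in the ASK1f/f livers and 1.83, 1.37, 1.98, 0.762 and 2.47 FPKM in the ASK1+hep livers. The 3 highest values were all in ASK1f/f livers (replicates 2, 5 and 3), but so was the lowest, and the ASK1+hep values lay within the ASK1f/f range. The mean was 3.89 ± 3.49 FPKM for ASK1f/f against 1.68 ± 0.648 FPKM for ASK1+hep (SD, n = 5 each), a log2 fold change of -0.56 ± 0.46 (SE, limma, adjusted p = 0.817), with 0.341 as the exact permutation p. Its 95% interval ran from -1.55 to 0.44. The within-genotype SD of Cdkn1a on the log2 scale was larger than that of 99.3% of genes tested. Counting error accounts for a coefficient of variation of 8.16% at its mean number of reads, against 89.6% measured among the ASK1f/f livers. Single livers had 29 to 426 reads. A minus-strand gene of unclear type overlaps Cdkn1a, and the strand setting of the counting is not given in the sources used here, so reads of the pair could not be separated. Without ASK1f/f replicate 1, the unadjusted p of Cdkn1a was 0.0454 by limma (log2 fold change -0.90, adjusted p = 0.877), and over all alternatives its adjusted p ranged from 0.532 to 0.998. Without ASK1f/f replicate 2 or 5, the log2 fold change was -0.27.

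Mdm2, on chromosome 10 (117688875 to 117710758, minus strand), encodes the ubiquitin ligase that marks p53 for degradation and is itself switched on by p53. It stood at 5.36, 6.18, 4.83, 4.78 and 6.43 FPKM in the ASK1f/f livers and at 5.55, 7.06, 3.18, 5.33 and 5.98 FPKM in the ASK1+hep livers. Both its highest and its lowest value were in ASK1+hep livers, and its log2 fold change was -0.05 ± 0.16 (SE, limma, adjusted p = 0.958), with an interval from -0.40 to 0.31. Ccng1, on chromosome 11 (40748552 to 40755311, minus strand), encodes cyclin G1, which recruits a phosphatase to MDM2. It was the steadiest of the p53 targets, at 8.32 to 10.4 FPKM in ASK1f/f and 7.25 to 10.4 FPKM in ASK1+hep livers, and its log2 fold change was -0.04 ± 0.12 (SE, limma, adjusted p = 0.937), with an interval from -0.30 to 0.21. The sign of neither gene is fixed by the data: without ASK1+hep replicate 3 the log2 fold change was 0.10 for Mdm2 and 0.02 for Ccng1.

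Of the apoptosis effectors, Bbc3 and Bax each had 3 ASK1+hep livers above every ASK1f/f liver, Pmaip1 had 2 above and 2 below all of them at very few reads, and Bcl2l11 had 1 above. Bbc3 encodes PUMA, a BH3-only protein that binds all pro-survival BCL2 proteins, and lies on chromosome 7 (16308393 to 16318205, plus strand). It stood at 4.12, 3.92, 2.61, 3.12 and 7.04 FPKM in the ASK1f/f livers and at 5.00, 8.48, 8.54, 9.34 and 3.76 FPKM in the ASK1+hep livers. ASK1+hep replicates 2, 3 and 4 exceeded every ASK1f/f liver, replicate 1 exceeded 4 of 5, and replicate 5 lay within the ASK1f/f range. The mean was 4.16 ± 1.72 FPKM for ASK1f/f against 7.03 ± 2.48 FPKM for ASK1+hep (SD, n = 5 each), a 1.69-fold ratio, from 83 to 293 reads per liver. By limma the log2 fold change was 0.63 ± 0.26 (SE, 95% interval 0.07 to 1.19, unadjusted p = 0.0307, adjusted p = 0.812), which ranked 467 of 13306 genes, and the exact permutation p was 0.0714. The difference therefore failed the correction. Its unadjusted p ranged from 0.00602 to 0.0788 by limma when 1 liver was left out and stayed under 0.05 in 4 of 10 such fits, and its adjusted p ranged from 0.383 to 0.998 over all alternatives.

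Bax encodes the pore-forming effector of the family and lies on chromosome 7 (45461697 to 45466898, minus strand). It stood at 14, 13, 10.3, 12.8 and 14 FPKM in the ASK1f/f livers and at 12.0, 19.1, 27.3, 17.4 and 9.30 FPKM in the ASK1+hep livers. The same 3 ASK1+hep livers as for Bbc3, replicates 2, 3 and 4, exceeded every ASK1f/f liver, whereas replicate 5 lay below all of them. The mean was 12.8 ± 1.49 FPKM for ASK1f/f against 17.0 ± 6.98 FPKM for ASK1+hep (SD, n = 5 each), and the coefficient of variation was 11.6% and 41.0%, respectively. The log2 fold change was 0.30 ± 0.23 (SE, limma, 95% interval -0.20 to 0.81, adjusted p = 0.815), and the exact permutation p was 0.31. Without ASK1+hep replicate 3 the log2 fold change was 0.12, and without replicate 5 it was 0.48 (limma, unadjusted p = 0.0309, adjusted p = 0.383), with adjusted p-values from 0.383 to 0.998 over all alternatives. Bax overlaps Gm45808, a protein-coding gene model on the same strand, which leaves its reads uncertain.

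Among the ASK1+hep livers, library composition moved with both Bax and Bbc3. Gene length and GC content explained 5.33 to 26.6% of the deviations in the ASK1+hep libraries and 1.42 to 4.99% in the ASK1f/f libraries. This effect was thus stronger in every ASK1+hep library than in any ASK1f/f library. The mean log2 deviation of genes shorter than 1500 bases from their average over all livers was 0.098, 0.314 and 0.098 in ASK1+hep replicates 2, 3 and 4 and -0.087 and -0.149 in replicates 1 and 5, beside -0.103 to -0.028 in ASK1f/f. The livers with the most Bax and the most Bbc3 were thus those with the most signal from short genes. Bax, with 1576 bases, is close to that length. Bbc3 is longer, with 2124 bases and 67.1% GC. Among the ASK1f/f livers neither gene rose with the short-gene deviation. There Bax and Bbc3 stood at 14 and 4.12 FPKM in replicate 1, at a deviation of -0.103. They stood at 10.3 and 2.61 FPKM in replicate 3 (-0.029) and at 14 and 7.04 FPKM in replicate 5 (-0.063). After correction of each library for gene length and GC content, added after seeing the data, the log2 fold change was 0.18 for Bax (limma, unadjusted p = 0.218, adjusted p = 0.78) and 0.50 for Bbc3 (unadjusted p = 0.019, adjusted p = 0.706). Summed erythroid markers (all 5 of 5 detected) ranged from 333 to 490 FPKM in ASK1f/f and from 324 to 1053 FPKM in ASK1+hep livers (exact permutation p = 0.0873), with 833 and 1053 FPKM in ASK1+hep replicates 3 and 4, and their part in these results was not tested. Summed macrophage markers overlapped, with 83.7 to 143 FPKM in ASK1f/f and 53.8 to 132 FPKM in ASK1+hep livers, and summed hepatocyte markers stood at 32151 to 44445 and 38282 to 47374 FPKM, so the tissue carried its defining markers.

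**Figure D2:**
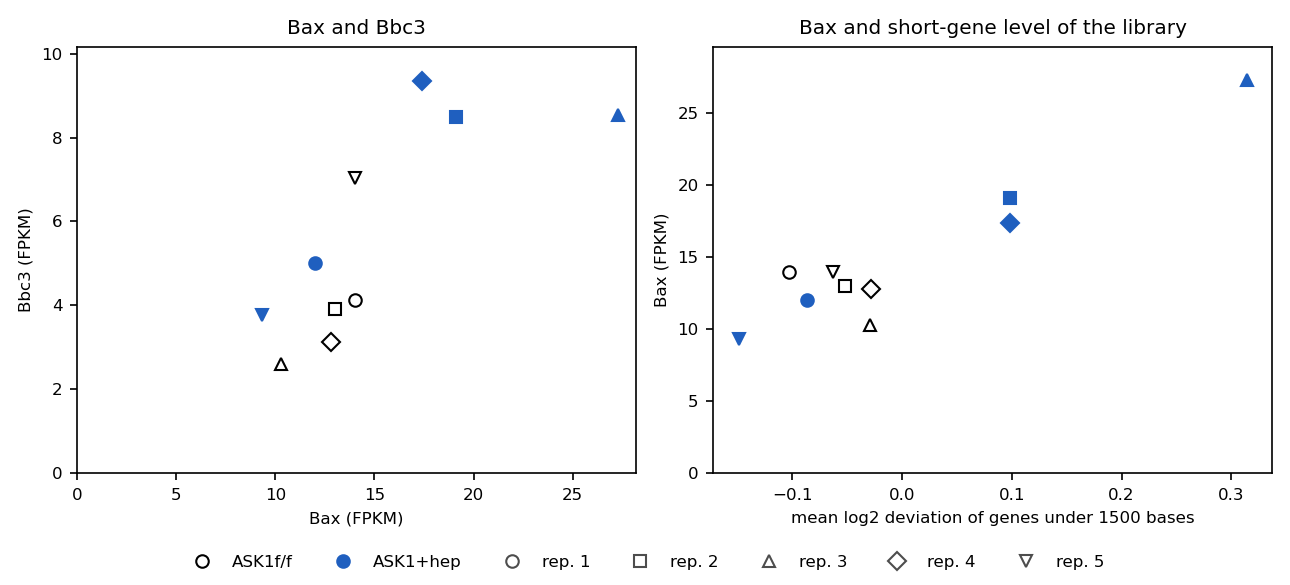
Left, Bbc3 against Bax (FPKM, linear axes) in each ASK1f/f (black, open) and ASK1+hep (blue, filled) liver, with a symbol for each replicate number. Right, Bax against the mean log2 deviation of genes shorter than 1500 bases in the same libraries. ASK1+hep replicates 2, 3 and 4 are the highest in Bax and also have the highest short-gene deviation, 0.098 to 0.314.

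Bcl2l11 encodes BIM, a BH3-only protein known as a target of FOXO factors and of JNK signalling, and lies on chromosome 2 (128126038 to 128162547, plus strand). It was low but measurable, at 0.664, 0.601, 0.566, 0.54 and 0.923 FPKM in the ASK1f/f livers and 0.818, 0.684, 1.02, 0.565 and 0.741 FPKM in the ASK1+hep livers, from 66 to 114 reads. ASK1+hep replicate 3 lay above all ASK1f/f livers and the other values within their range, and the log2 fold change was 0.09 ± 0.08 (SE, limma, 95% interval -0.10 to 0.28, adjusted p = 0.832). Pmaip1 encodes NOXA, a BH3-only protein that binds MCL1. It had 2 to 10 reads per liver and did not pass the filter, with 0.155 ± 0.026 FPKM for ASK1f/f against 0.157 ± 0.0734 FPKM for ASK1+hep (SD, n = 5 each, exact permutation p = 1). Counting error alone gives a coefficient of variation of 39.8% at this depth, so a moderate difference was not detectable.

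The GADD45 genes encode small proteins that bind and activate the kinase MAP3K4 and also bind CDK1 and PCNA, and only Gadd45a is a classical p53 target, while Gadd45b and Gadd45g are mainly induced by cytokines and stress. Gadd45g, on chromosome 13 (51846678 to 51848468, plus strand), was both the highest and the most variable of the 10 genes. It stood at 56.7, 182, 89.1, 10.8 and 16.4 FPKM in the ASK1f/f livers and at 25.4, 134, 19.6, 7.39 and 20.1 FPKM in the ASK1+hep livers. The highest liver exceeded the lowest 24.7-fold, and each genotype held livers above 100 and below 20 FPKM. The mean was 71.1 ± 69.9 FPKM for ASK1f/f against 41.3 ± 52.2 FPKM for ASK1+hep (SD, n = 5 each), a log2 fold change of -0.78 ± 0.82 (SE, limma, 95% interval -2.57 to 1.01, adjusted p = 0.842), with 0.444 as the exact permutation p. Its within-genotype SD exceeded that of 99.9% of genes tested, at a counting coefficient of variation of 3.19%. Its log2 fold change was -0.28 when replicate 2 of ASK1f/f was left out and -1.37 when replicate 2 of ASK1+hep was left out, the extremes over the 10 livers. With the replicate number as a block, its unadjusted p was 0.033 (limma, adjusted p = 0.727).

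Gadd45a, on chromosome 6 (67035096 to 67037457, minus strand), ranged from 0.781 to 2.76 FPKM in ASK1f/f and from 0.782 to 2.55 FPKM in ASK1+hep livers, nearly the same range (log2 fold change 0.05 ± 0.25, SE, limma, adjusted p = 0.971). In ASK1f/f it was high in replicates 2 and 5, the same livers in which Cdkn1a was high. An antisense transcript, E230016M11Rik, overlaps it and could not be told apart without the strand setting. Gadd45b, on chromosome 10 (80930073 to 80932204, plus strand), ranged from 0.264 to 1.56 and from 0.443 to 1.61 FPKM, respectively (log2 fold change 0.09 ± 0.20, SE, limma, adjusted p = 0.923). Both differences turn sign after the correction for length and GC content, to -0.047 for Gadd45a and -0.018 for Gadd45b.

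**Figure D3:**
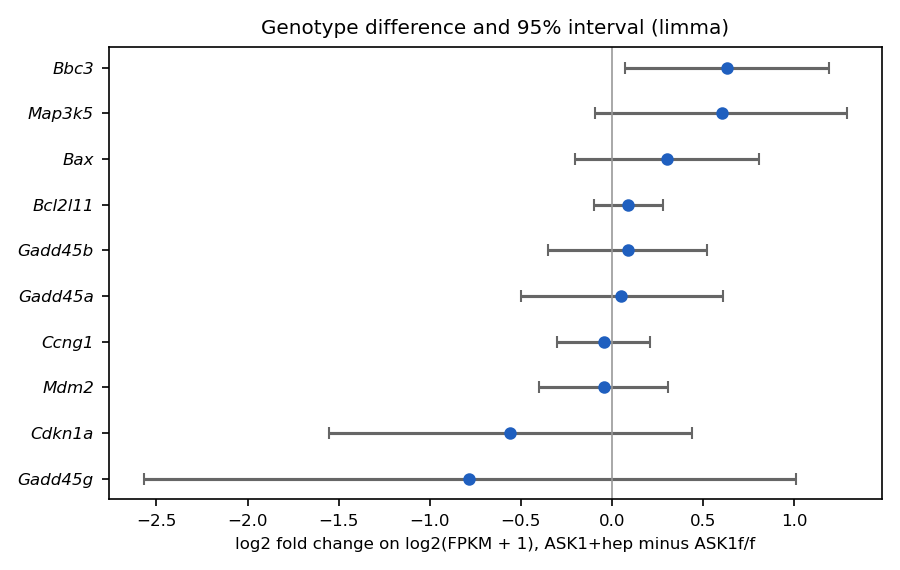
Log2 fold change on log2(FPKM + 1), ASK1+hep minus ASK1f/f, for the 9 members tested and Map3k5 (points), with the 95% interval from limma (bars, n = 5 per genotype). Only the interval of Bbc3, 0.07 to 1.19, leaves out 0, and those of Cdkn1a and Gadd45g are the widest.

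Ordered by mean level over the 10 livers, Gadd45g (56.2 ± 60.2 FPKM, SD) was followed by Bax (14.9 ± 5.25), Ccng1 (9.07 ± 1.09), Bbc3 (5.59 ± 2.51), Mdm2 (5.47 ± 1.07), Cdkn1a (2.79 ± 2.63), Gadd45a (1.55 ± 0.797), Gadd45b (0.909 ± 0.46), Bcl2l11 (0.712 ± 0.163) and Pmaip1 (0.156 ± 0.0519 FPKM). The ranges of all neighbours in this order overlapped except those of Bcl2l11 and Pmaip1, where Bcl2l11 was higher in 10 of 10 livers. Gadd45g exceeded Bax in 7 of 10 livers and also had the higher median, 22.7 against 13.5 FPKM. The places of Bbc3 and Mdm2 depend on the measure, since Bbc3 exceeded Mdm2 in 4 of 10 livers, with a median of 4.56 against 5.46 FPKM, and its mean was below that of Mdm2 in ASK1f/f (4.16 and 5.52 FPKM) and above it in ASK1+hep (7.03 and 5.42 FPKM).

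**Figure D4:**
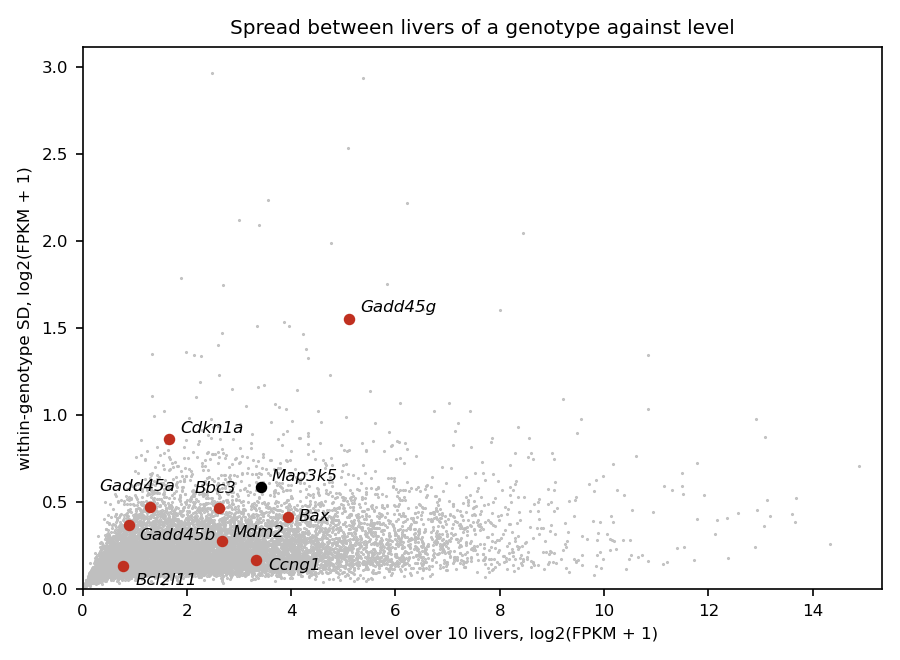
Within-genotype SD against mean level, both on log2(FPKM + 1), for the 13306 genes tested (grey) with the 9 members (red) and Map3k5 (black). Gadd45g and Cdkn1a lie far above most genes of their level, larger in spread than 99.9% and 99.3% of genes, while Ccng1 and Bcl2l11 lie within the bulk.

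Whether livers with more Map3k5 mRNA also had more of each member was examined over the 10 livers, with permutation tests. None of 9 relations passed adjustment. That with Ccng1 had the highest r, 0.54 (permutation p = 0.111, adjusted p = 0.406), with rho = 0.50 (permutation p = 0.142, adjusted p = 0.32) and r = 0.57 without the 2 livers farthest from the median of Map3k5. On deviations from the genotype means its r was 0.71 (permutation p = 0.0157, adjusted p = 0.142), and its adjusted p ranged from 0.142 to 0.756 over the alternatives. The relation with Bcl2l11 had the highest rho, with r = 0.52 (permutation p = 0.124, adjusted p = 0.406) and rho = 0.65 (permutation p = 0.0495, adjusted p = 0.32), and r was 0.22 without the same 2 livers. Without ASK1+hep replicate 3 this r was 0.83 (adjusted permutation p = 0.0487). The relation of Map3k5 with Bbc3 had r = 0.50 (permutation p = 0.141, adjusted p = 0.406) and rho = 0.53 (permutation p = 0.126, adjusted p = 0.32), with r = 0.33 without the farthest 2 livers, and that with Bax had r = -0.06 (permutation p = 0.867).

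Among the 36 pairs of members, also 0 passed adjustment. Bax and Bbc3 were the most alike, with r = 0.80 (permutation p = 0.00321, adjusted p = 0.116) and rho = 0.84 (permutation p = 0.00355, adjusted p = 0.114). Their r was 0.87 without the 2 livers farthest from the median of Bax, 0.78 on deviations from the genotype means, and 0.55 after the correction for length and GC content. Ccng1 and Gadd45b ran in opposite directions, with r = -0.72 (permutation p = 0.021, adjusted p = 0.252), rho = -0.82 (permutation p = 0.00635, adjusted p = 0.114) and r = -0.69 without the farthest 2 livers. Ccng1 and Bax had the same r, -0.72 (permutation p = 0.018, adjusted p = 0.252), with rho = -0.49 (permutation p = 0.156, adjusted p = 0.769). For that pair r was -0.19 without the 2 livers farthest from the median of Ccng1. Cdkn1a and Gadd45a had r = 0.60 (permutation p = 0.0714, adjusted p = 0.561) and rho = 0.50 (permutation p = 0.144, adjusted p = 0.769), but r was 0.05 without ASK1f/f replicates 2 and 5, so the relation rests on those livers. The canonical pair Cdkn1a and Mdm2 had r = 0.28 (permutation p = 0.439, adjusted p = 0.736).

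Over all genes tested, the gene whose levels were most like those of each member across the 10 livers was Naa38 for Bax (r = 0.986), Slfn9 for Ccng1 (r = 0.962), Pdcl3 for Gadd45b (r = 0.958), Fkbp11 for Bbc3 (r = 0.955), Nlrc5 for Mdm2 (r = 0.948), Klhl3 for Bcl2l11 (r = 0.937), Ggta1 for Cdkn1a (r = 0.936), Cfd for Gadd45a (r = 0.931) and Fbln5 for Gadd45g (r = 0.901). In no case was it another member. These r are the highest among all genes and are given as a description, since all points share their libraries.

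The pathway around the members was described by 9 lists holding 132 genes, of which 117 were compared. No gene of the 117 passed after adjustment. In 5 of them (4.27%) the unadjusted p was under 0.05, all 5 higher in ASK1+hep, beside 5.77% over all genes. The median log2 fold change over these lists was -0.024. All 11 p53 regulators compared had a negative log2 fold change (median -0.073), whereas 48% of all genes tested had a positive one. None of the 11 had an unadjusted p under 0.05. Their median was -0.051 after the correction for length and GC content and -0.035 without ASK1+hep replicate 3. Mdm4, the partner of MDM2 in restraining p53, had the lowest p among them, with 2.97 ± 0.279 FPKM for ASK1f/f against 2.42 ± 0.722 FPKM for ASK1+hep (SD, n = 5 each, log2 fold change -0.24 ± 0.14, SE, limma, adjusted p = 0.812), followed by Trp53bp1 (-0.09), Atr (-0.07) and Ppm1d (-0.08).

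Of 28 further p53 targets compared, 17 had a positive and 11 a negative log2 fold change (median 0.027, or -0.031 when libraries were scaled by all reads). Gdf15, a stress-induced cytokine, stood at 3.97 ± 1.39 FPKM for ASK1f/f against 7.51 ± 3.67 FPKM for ASK1+hep (SD, n = 5 each, log2 fold change 0.70 ± 0.31, SE, limma, unadjusted p = 0.0436, adjusted p = 0.812), and was followed by Gtse1 (0.26), Sesn2 (0.32) and Plk3 (0.76), none of which had an unadjusted p under 0.05. Among 8 other pro-death BCL2 genes the median was 0.016, or -0.061 with the other scaling. Bik, a BH3-only gene, stood at 3.1 ± 0.923 FPKM for ASK1f/f against 5.11 ± 1.58 FPKM for ASK1+hep (SD, n = 5 each, log2 fold change 0.57 ± 0.20, SE, limma, unadjusted p = 0.0136, adjusted p = 0.812), ahead of Bad (0.16), Bmf (-0.19) and Bid (-0.11). The 4 pro-survival genes compared, Mcl1 (log2 fold change -0.12), Bcl2l2 (-0.08), Bcl2 (-0.03) and Bcl2l1 (0.10), had a median of -0.053.

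The 18 genes of the caspases and the apoptosome had a median of -0.043 and none with an unadjusted p under 0.05. The lowest p there was that of Birc5, an inhibitor of apoptosis also needed for cell division (log2 fold change -0.24), and Aifm1 (-0.30) and Casp2 (-0.12) were also among the genes of lowest p. The 10 death receptor and necroptosis genes had a median of -0.079, led by Ripk1 (-0.14), Tnfrsf1b (-0.23), Tnfsf10 (-0.19) and Tnfrsf1a (-0.15). Of 10 GADD45 partners, Cdk1 had an unadjusted p under 0.05, at 0.198 ± 0.091 FPKM for ASK1f/f against 0.359 ± 0.119 FPKM for ASK1+hep (SD, n = 5 each, log2 fold change 0.18 ± 0.07, SE, limma, unadjusted p = 0.0278, adjusted p = 0.812), from 6 to 34 reads per liver, and Mapk14 (-0.27), Map2k7 (0.23) and Map2k6 (-0.51) did not. The 14 genes of the CDK inhibitors and G1 cyclins had a median of -0.034, led by Ccnd1 (-0.30), Ccnd3 (0.25), Cdkn1b (-0.19) and Ccnd2 (-0.12), none with an unadjusted p under 0.05.

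The list of stress transcription factors also held Trib3, which is not such a factor. This list had the highest median of the 9, 0.138 over 14 genes. The median was 0.066 when libraries were scaled by all reads and 0.076 after the correction for length and GC content. Without ASK1+hep replicate 3 it was 0.046, beside 0.044 for the GADD45 partners. Jun, the substrate of JNK that gives the kinase its name, stood at 5.26 ± 3.37 FPKM for ASK1f/f against 15.2 ± 10.5 FPKM for ASK1+hep (SD, n = 5 each, log2 fold change 1.27 ± 0.40, SE, limma, unadjusted p = 0.00861, adjusted p = 0.812), with 0.0317 as the exact permutation p. Trib3, a target of CHOP and ATF4, stood at 3.07 ± 1.14 and 5.6 ± 2.04 FPKM, respectively (log2 fold change 0.70 ± 0.24, SE, limma, unadjusted p = 0.015, adjusted p = 0.812). Atf3 (0.44) and Atf4 (0.41) had no unadjusted p under 0.05. In each of Jun and Trib3 the ranges of the genotypes overlapped.

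**Figure D5:**
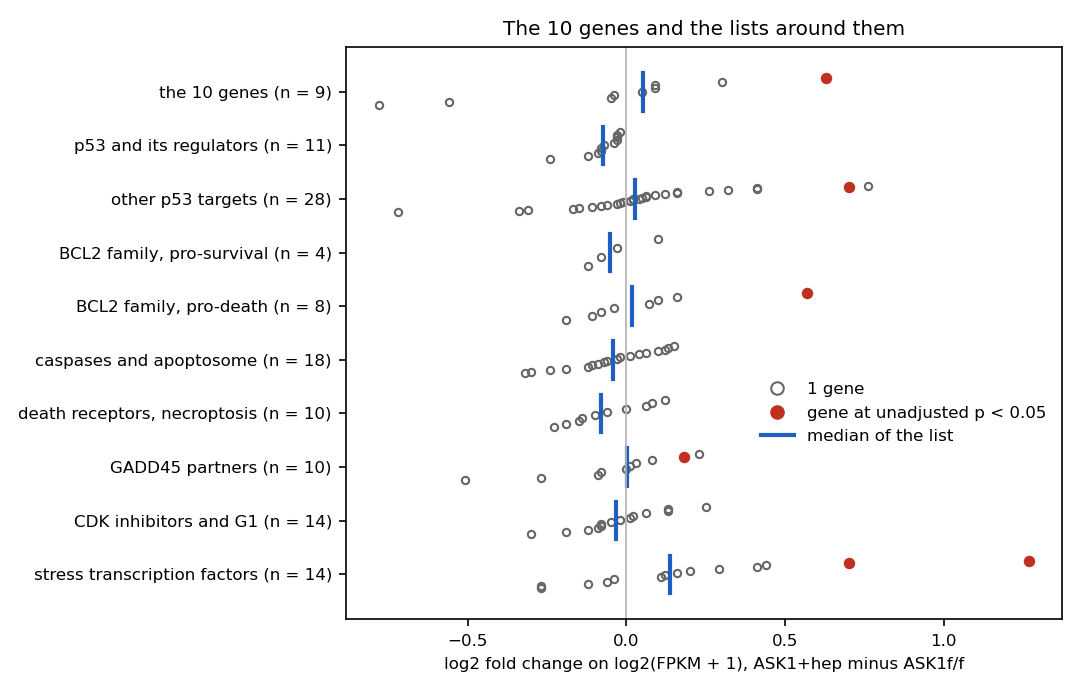
Log2 fold change on log2(FPKM + 1), ASK1+hep minus ASK1f/f, of every gene compared in the 10 genes and in 9 lists around them (rows, n compared in brackets). Open points are genes, red points those with an unadjusted p under 0.05, and blue bars list medians. The medians lie between -0.079 and 0.138, and the 6 red points are all above 0.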

How the data were processed

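Liver poly(A) mRNA of 10 mice was sequenced. Per the study's methods the authors aligned reads with Hisat2, counted them with FeatureCounts and tested genes with DESeq2. They deposited FPKM per gene, and the submitters' processing notes name fastp. Build and strand setting are not given in the sources used here, and gene coordinates matched GENCODE M21 (GRCm38) for 98.3% of the genes found there. Since the values are FPKM, the main test was limma 3.58.1 (R 4.3.3) with a mean-variance trend on log2(FPKM + 1), adjusted by Benjamini-Hochberg over genes that reached 10 reads (at the depth of the median library) in 5 or more livers and 15 reads overall. Reads were recovered from FPKM and gene length (100% whole within 0.01 reads). They numbered 13367742 to 16163378 per liver. The coefficients of variation given for counting hold at the mean reads of a gene over the 10 livers and cover counting error only. Exact two-sided permutation tests used all 252 splits (smallest possible p 0.00794), and correlations 100000 permutations. The script was tested on simulated data. Alternatives were another pseudocount, other filters, limma-voom on recovered reads, other scaling, covariates, and leaving out each liver. All 10 members were described, from each list up to 4 genes of lowest p were named (1 of these is not reported here), and for each member the gene most like it by r. The members and lists were chosen with earlier results of these data known. Motif and promoter sequences came from RefSeq GRCm38.p6.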

Additional observations from a re-analysis of the deposited data

Results flagged for a closer look

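In 22 groups of 5 livers (the 10 genes and Map3k5 in each genotype), the gap between the highest or lowest liver and its nearest neighbour, divided by the range of the group, exceeded Dixon's critical value at the 95% level in 2. For normally distributed values, chance alone gives about 1 in 20 such groups. The ratio was taken on linear FPKM, where the SD of Gadd45g in ASK1+hep (52.2) exceeded its mean (41.3). This rate may therefore not hold here. Gadd45g in ASK1+hep replicate 2 stood at 134 FPKM, with the others at 7.39 to 25.4 FPKM and a gap ratio of 0.857. The ASK1f/f liver of the same number was the highest of all, at 182 FPKM. Map3k5 in ASK1f/f replicate 5 stood at 19.8 FPKM, with the others at 4.71 to 6.88 FPKM and a gap ratio of 0.856. In that liver 7 of the 10 genes were also the highest of the ASK1f/f livers, namely Bbc3 (7.04 FPKM), Bcl2l11 (0.923), Gadd45a (2.76), Mdm2 (6.43), Ccng1 (10.4), Pmaip1 (0.196, from 8 reads) and, by a margin lost in rounding, Bax (14 FPKM). How often this liver was the highest over all genes was not counted, so the 7 cannot be read as a trait of these genes.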

How the results depend on the processing

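No member passed the adjusted threshold under any alternative run, and Cdkn1a, Bax, Bbc3, Bcl2l11 and Gadd45g kept their sign in all 20. Genes past the adjusted threshold numbered 1 with limma-voom and quality weights and 0 to 1 when each liver was left out (1 without ASK1+hep replicate 5). Genes at an unadjusted p under 0.05 numbered 1222 without a filter and 557 to 1724 with a liver left out, and those of the wider lists 12 with quality weights and 4 to 14. Of the 10 genes, 0 to 2 had an unadjusted p under 0.05 with a liver left out and 2 with the length and GC correction and replicate block. With a liver left out, log2 fold changes spanned -0.14 to 0.10 for Mdm2, -0.10 to 0.02 for Ccng1, -0.077 to 0.21 for Gadd45a and -0.041 to 0.21 for Gadd45b. Mdm2 was 0.10 with quality weights, and Gadd45a and Gadd45b were -0.047 and -0.018 with the length and GC correction, with or without the block. Map3k5 relations past the threshold numbered 0 to 1 (1 without ASK1+hep replicate 3), that with Bcl2l11 at r = 0.83; the cause of these changes was not tested. Scaling by all reads shifted the median of all genes to -0.052, and the share of genes at an unadjusted p under 0.05 that were higher in ASK1+hep from 52.9% to 31.4%. Same-numbered livers deviated with r of 0.0212 to 0.174, over 0.1 in 2 of 5 pairs. Their mean r was 0.107, beside -0.0275 for livers of unlike number across the genotypes. Of the livers, 6 of 10 correlated best with their own number. Animal tags are consecutive in 4 of 5 pairs, and only replicate 1 of each genotype carries the tag prefix SN. The paper describes the ASK1f/f mice as control littermates, but no label ties a number to a litter or batch. The numbers were therefore not taken to pair the livers, though they may. Under the replicate block the adjusted threshold was passed by 0 genes and an unadjusted p under 0.05 was found for 880, with Gadd45g at 0.033 (limma, adjusted p = 0.727), Map3k5 at 0.0303 (adjusted p = 0.727) and Bbc3 at 0.0725. Gadd45b gave no value with at least 10 reads required in every liver. Depth limits Pmaip1 most, at 2 to 10 reads.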
